A study of Mus musculus with 18 samples.

Results

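Day 3 embryoid bodies (EBs) grown without LIF were compared with undifferentiated ES cells on spotted cDNA arrays. The comparison covered every clone of the array with 1 gene symbol and a value on all 4 arrays of the 2 conditions, which was 9866 of 15360 clones and 7142 genes. The study hybridised 18 arrays, 2 for each of 9 conditions, each against one RNA pool, and the dyes were swapped between the 2 arrays of a condition. Per the paper, ES cells and EBs alike were treated with trypsin before RNA extraction. D0 was the mouse ES line IMT11 kept with LIF on gelatin in medium with 10% FBS and 10% NBS. D3-LIF was the same line as EBs begun at 1000 cells per hanging drop, flooded with medium after the first day and collected on Day 3 from the same medium without LIF. The 2 conditions therefore differ in time, in culture form and in LIF at once, and these cannot be told apart. The labels describe 2 sets of cultures but do not say which array came from which, so dye and culture set cannot be told apart either. IMT11 is a single line, and RNA of whole cultures was measured, so fewer cells of a type and less RNA per cell cannot be told apart.

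LIF is a cytokine that acts through gp130 and STAT3 to hold mouse ES cells in the undifferentiated state. When ES cells aggregate without it, the bodies pass through a stage like the primitive ectoderm of the early embryo, form an outer layer of endoderm and later begin germ layer specification. Undifferentiated ES cells are marked by Oct4 (Pou5f1), Nanog and Rex1 (Zfp42), and they divide rapidly on a supply of ribosomes and glycolytic enzymes.

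Values are log2 ratios, averaged over the duplicate spots of a clone and then over the clones of a gene, after each array was centred on its median within each slide. A value of 0 is the middle of an array, and a difference is D3-LIF minus D0, taken within the Cy3 arrays (the Cy3 pair) and within the Cy5 arrays (the Cy5 pair). The direction of the deposited ratios is not settled. The labels name the sample first, so sample over pool is likely, but the D0 Cy3 array ran against the other 3 arrays compared: its correlation over clones was -0.68 (slide 1) and -0.73 (slide 2) with the D0 Cy5 array, and -0.27 and -0.31 with the D3-LIF Cy3 array of the same dye. Among the arrays of the other conditions it did not stand alone, since over both slides its correlation with the other 8 Cy3 arrays ran from -0.24 (D3-LIF) to 0.60 (D2-LIF), while it was between -0.67 and -0.10 with the 9 Cy5 arrays. The D0 and D3-LIF arrays in Cy5, by contrast, correlated at 0.70 and 0.79. The D0 Cy3 array was also far wider than the rest on slide 1, with an SD of 2.23 on the log2 scale against 0.25 to 0.73 on the other 3 arrays, and the D0 Cy5 array (0.32 and 0.43) was narrower than the D3-LIF Cy5 array (0.73 and 0.66). For that reason the called genes and many other comparisons below are given also with the sign of the D0 Cy3 array turned. This turn leaves the Cy5 pair as it is. Of 98 named genes 73 changed the sign of their difference under it. A difference printed without its turned value may therefore not keep its side.

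The genes called lower in D3-LIF than in D0 all belong to the protein synthesis machinery, although larger differences with wider errors were seen elsewhere. By limma, fitted to all 18 arrays with a dye term, 3 of 7142 genes were lower (0.042%) and 1 was higher (0.014%) at a Benjamini-Hochberg adjusted p under 0.05. The lower genes were Rpsa, a protein of the small ribosomal subunit, Rpl37, a protein of the large subunit, and Eef1a1, the elongation factor that brings aminoacyl-tRNA to the ribosome. The higher gene was Dnmt1, the maintenance DNA methyltransferase. No gene was called when the D0 Cy3 array, the D3-LIF Cy3 array or the D3-LIF Cy5 array was left out, and 2225 were without the D0 Cy5 array. None of the 4 calls held with the sign of the D0 Cy3 array turned, when the smallest limma adjusted p over all genes was 0.74. Clone by clone, over all 15360 clones, no call was made (0% lower, 0% higher, limma adjusted p of at least 0.13). At an unadjusted limma p under 0.05 there were 1844 clones lower and 1036 higher, of which 1432 and 483 had 1 gene symbol. SAM, a permutation method that took the 4 spots of each condition as repeats, called 2306 clones lower and 1297 higher at a 2-fold change. It too was run without regard to gene symbols. Those 4 spots come from 2 arrays and are not independent, so the SAM counts do not rest on 4 samples.

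Rpsa read 2.15 on the D0 Cy3 array and -0.89 on the D0 Cy5 array, against -1.17 and -3.15 on the D3-LIF arrays. Both D3-LIF arrays lay below both D0 arrays, although those of D3-LIF in Cy3 and D0 in Cy5 were close together. The difference was -2.79 ± 0.37 (SE, limma adjusted p = 0.040) and became -0.64 with the D0 Cy3 array turned. All 7 clones of Rpsa were lower in both pairs, by -4.46 to -3.85 on slide 1 (2 clones) and by -2.49 to -2.01 on slide 2 (5 clones).

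Eef1a1 read 2.72 and -1.14 in D0 and -0.33 and -3.23 in D3-LIF, in the order Cy3, Cy5 that holds for every such pair below. Its difference was -2.57 ± 0.32 (SE, limma adjusted p = 0.039). The gene had 17 clones, the most of any gene measured, and each was lower in both pairs. Those on slide 1 differed by -4.52 to -2.12 (6 clones) and those on slide 2 by -2.34 to -1.30 (11 clones). Rpl37 read 2.52 and -0.58 in D0 and -0.52 and -2.44 in D3-LIF, a difference of -2.45 ± 0.29 (SE, limma adjusted p = 0.039), with -3.31 for its slide 1 clone and -1.59 for its slide 2 clone. The differences of both genes were near 0 with the D0 Cy3 array turned, at 0.15 for Eef1a1 and 0.070 for Rpl37, because the Cy3 pair then ran the opposite way (2.39 and 1.99) to the Cy5 pair (-2.09 and -1.85).

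Transcripts of ribosomal proteins and elongation factors are known for a run of pyrimidines at their 5′ end, so the sequence around the start of these 3 genes is shown. Each line gives 20 bases before and 30 bases from the start listed by RefSeq in GRCm38.p6, 5′ to 3′ on the strand of the gene, with CTTTC in capitals where present.
Rpsa (chr9:120127746-120127795, plus strand): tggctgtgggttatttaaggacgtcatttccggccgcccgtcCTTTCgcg
Eef1a1 (chr9:78481695-78481744, minus strand): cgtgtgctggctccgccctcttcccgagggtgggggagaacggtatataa
Rpl37 (chr15:5116593-5116642, plus strand): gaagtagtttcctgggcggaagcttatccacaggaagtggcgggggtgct
The letters CTTTC occur in the window of Rpsa and not in those of Eef1a1 and Rpl37. Among ribosomal protein genes with 1 listed start, 20 of 51 held CTTTC on the strand of the gene (39.2%), and 5 held it on the other strand (9.8%). Over all genes of the table with 1 listed start the shares were 6.52% and 5.98%. A match is a description of these letters and not of a site in use. Each window rests on the listed start, and whether that start is the one used in these cells was not tested. A window without these letters therefore does not show that the transcript lacks a run of pyrimidines.

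**Figure D1:**
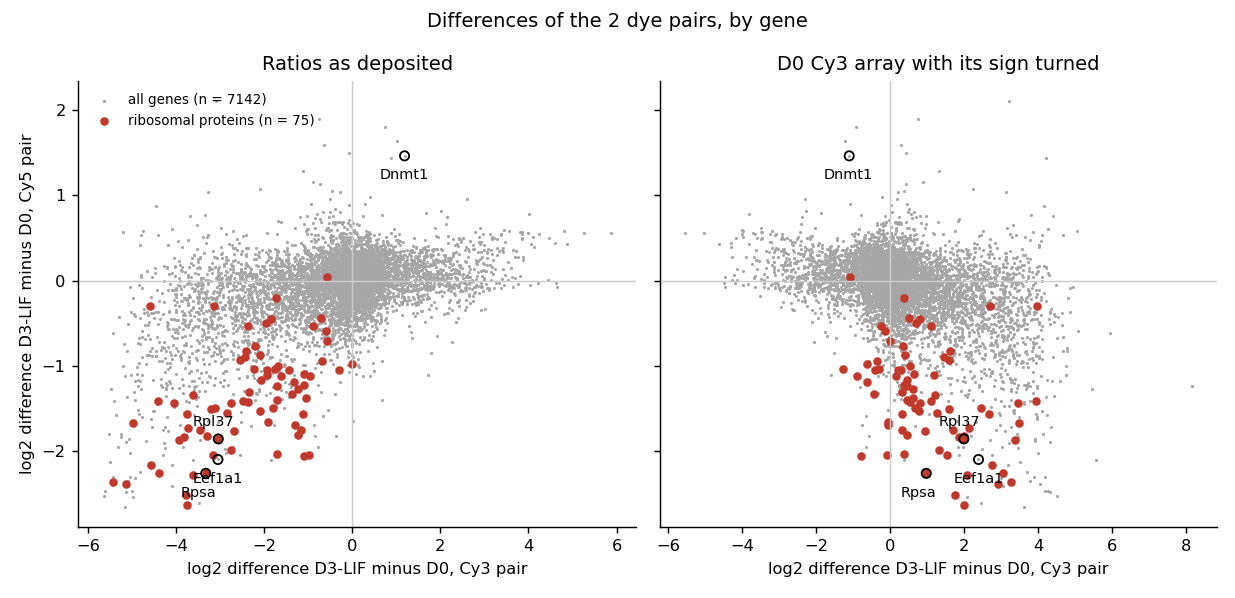
Difference of D3-LIF minus D0 for each gene in the Cy3 pair (x axis, log2) and the Cy5 pair (y axis, log2), with ribosomal protein genes in red and the 4 called genes ringed. On the left the ratios are as deposited and the red points lie low in both pairs. On the right the D0 Cy3 array has its sign turned, and most red points lie low in the Cy5 pair only.

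The ribosomal proteins differed together. Of the 48 measured genes of the large subunit 47 were lower in D3-LIF in both pairs, and of the 27 of the small subunit all 27 were, against 34.9% of all genes lower and 25.4% higher in both pairs. A difference of at least 2-fold in both pairs was seen in 33 and 21 of them, against 3.15% of all genes. Over all 15360 clones 690 were at least 2-fold lower (4.49%) and 10 higher (0.0651%) in both pairs, but 101 lower and 222 higher after quantile normalization. The median of the large subunit was 1.45 and -0.90 on the D0 arrays and -0.63 and -2.29 on the D3-LIF arrays, and that of the small subunit was 1.25 and -0.89, then -0.81 and -2.37. D3-LIF was therefore lower than D0 within each dye by a median of -2.28 and -1.39 for the large subunit and -2.09 and -1.42 for the small subunit, where all genes had -0.12 and -0.02.

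The Cy5 pair does not depend on the sign of the D0 Cy3 array, and there the large subunit was lower in 47 and the small subunit in 27 genes, against 52.5% of all genes. Of these 34 and 23 were at least 2-fold lower, against 3.5% of all genes, of which 0.21% were at least 2-fold higher. The lowest were Rpl32 at -2.63 and Rps20 at -2.51, and the highest was Rpl11 at 0.04. When the arrays were scaled to equal spread the Cy5 medians shrank to -0.72 and -0.61, with 41 and 26 genes lower, and after quantile normalization to -0.38 and -0.44. The Cy3 pair turned to 0.80 and 0.46 with the D0 Cy3 array turned, so that over both pairs the medians were -0.21 for the large and -0.42 for the small subunit. With all 9 Cy3 arrays turned they were 0.55 and 0.45. On slide 2 alone, where the D0 Cy3 array was narrower (SD 0.49), the medians were -1.36 and -1.45.

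Of the ribosomal protein genes named by size of p, Rpl37a read 1.80 and -0.95 in D0 and -0.87 and -2.71 in D3-LIF (limma adjusted p = 0.12). Rps9 read 2.58 and -0.76, then -0.88 and -2.51, and Rpl7 read 2.04 and -0.92, then -0.71 and -2.91. Rpl8, which the study followed up, read 2.84 and -1.35, then -0.98 and -3.17. All were lower in D3-LIF within each dye, and none passed the limma threshold. Many ribosomal protein genes have processed pseudogenes, and cDNA spots can take up signal from such relatives.

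D0 stood apart from the other conditions as well as from D3-LIF. On the Cy5 arrays the median of the small subunit was -0.89 in D0 and lay between -3.63 and -1.66 in the 8 EB conditions, with D3-LIF at -2.37 in the middle of them. D0 was the highest of the 9 Cy5 arrays for 22 of the 27 small subunit genes and for 30 of the 47 large subunit genes measured on all of them, against 713 of 4682 genes in all. D3-LIF was the lowest of the 9 for 2 and 4 of them, against 232 of the 4682. These ranks were taken without scaling to equal spread, and the D0 Cy5 array was narrower than the D3-LIF Cy5 array. Whether the ranks hold after scaling was not tested. On the Cy3 arrays as deposited D0 was the highest of the 9 for 24 and 43 genes and D3-LIF the lowest for 24 and 41, against 3148 and 1140 of all 7142 genes.

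**Figure D2:**
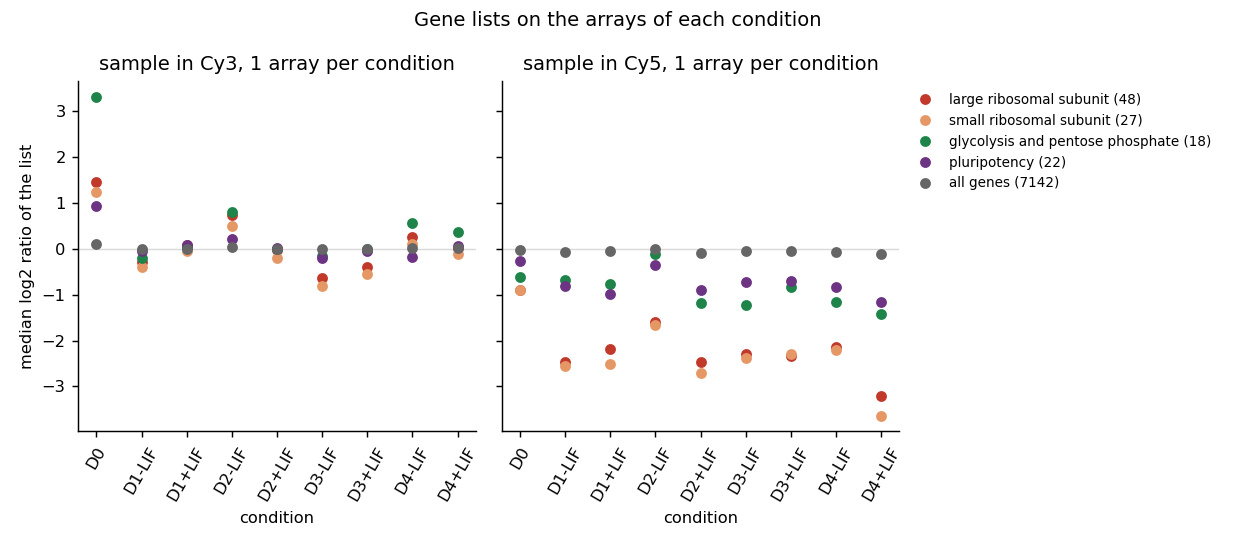
Median log2 ratio of 4 gene lists and of all genes (y axis) on the array of each condition (x axis), with the sample in Cy3 on the left and in Cy5 on the right. Each point is 1 array. In Cy5 both ribosomal lists sit at about -0.9 in D0 and below -1.5 in each EB condition, while in Cy3 the D0 array lies above the others for the 4 lists.

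Other factors of protein synthesis were lower in fewer members. Of 59 translation factors, the enzymes that modify them included, 36 were lower and 5 higher in both pairs, with 1 call (Eef1a1) and medians of -1.53 and -0.26. Eif4a1, the RNA helicase of translation initiation and a gene the study named, read 4.65 and -1.64 in D0 and -0.28 and -2.82 in D3-LIF. Of 19 ribosome assembly genes 13 were lower in both pairs and 0 higher, with no call by limma. Npm1, the nucleolar protein nucleophosmin, read 2.28 and -2.25, then 0.31 and -3.36, and Nip7 read 2.66 and -0.21, then -0.21 and -1.27. The list of 22 tRNA synthetases, gathered by symbol, holds 6 genes that are none (Coprs, Dhrs1, Frrs1, Irs1, Ptprs and Rrs1). Of the other 16 genes 11 were lower and 1 higher in both pairs, led by Sars (difference -1.73) and Qars (-1.20). Turning the D0 Cy3 array moved the medians of these lists to 0.22, 0.85 and 0.61, above 0 in each case. The Cy5 median of the translation factors was -0.01 when the arrays were scaled to equal spread.

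Mitochondrial ribosomal proteins did not share the Cy5 difference of the cytosolic ones. In that pair 31 of 48 were lower (64.6%, against 52.5% of all genes), by a median of -0.10, and none by 2-fold. The Cy3 pair, however, gave a median of -1.23. Mrps27 read 1.09 and 0.04 in D0 and -0.02 and -0.57 in D3-LIF. Mrps9 ran the other way, at -1.12 and -1.34 in D0 and -0.10 and 0.29 in D3-LIF, a difference of 1.32 (limma adjusted p = 0.13). Both D0 arrays lay below both D3-LIF arrays for Mrps9, but its duplicate spots differed by 1.27 on the D0 Cy3 array. The difference between the 2 ribosome lists was not tested.

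**Figure D3:**
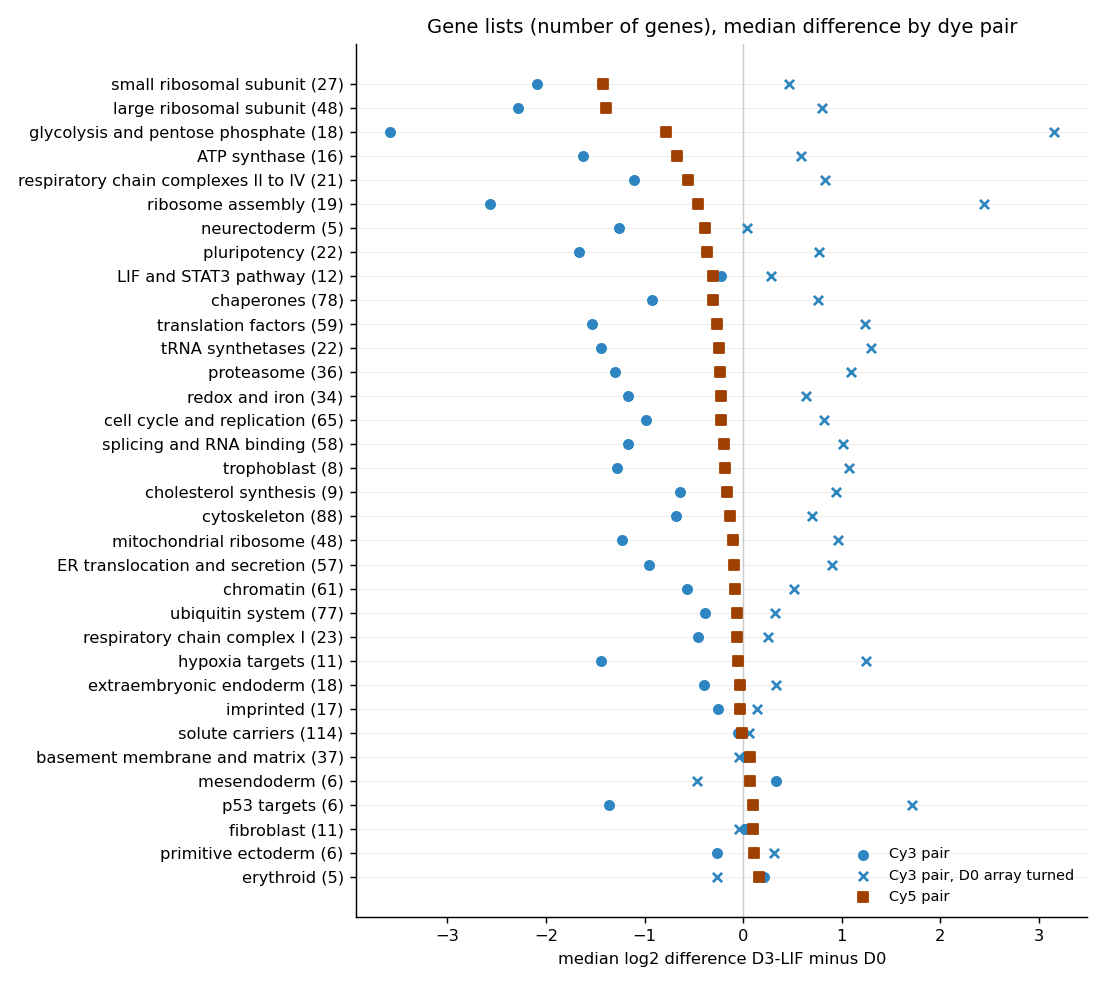
Median log2 difference of D3-LIF minus D0 (x axis) for 34 gene lists (y axis, number of genes in brackets) in the Cy3 pair, in the Cy3 pair with the D0 array turned, and in the Cy5 pair. The 2 cytosolic ribosomal lists have the lowest Cy5 medians, at -1.42 and -1.39, and the Cy3 median changes side in nearly all lists when the D0 array is turned.

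Energy metabolism held the lists of next lowest Cy5 median. Of 18 genes of glycolysis and the pentose phosphate pathway 14 were lower and 2 higher in both pairs, 7 by at least 2-fold, with medians of -3.59 in the Cy3 pair and -0.78 in the Cy5 pair. No member was called by limma. Pkm, the pyruvate kinase, read 2.91 and -0.77 in D0 and -0.93 and -2.72 in D3-LIF, and Aldoa, the aldolase, read 4.49 and -0.69, then -0.58 and -2.53. The list median became 0.94 with the D0 Cy3 array turned, and on slide 2 alone it was -0.20.

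All 16 ATP synthase genes were lower in the Cy5 pair (median -0.67), against 52.5% of all genes. So were 18 of 21 genes of respiratory chain complexes II to IV (-0.56). Complex I had 15 of 23 lower (65.2%, median -0.06), nearer the share of all genes. At equal spread 15, 14 and 11 genes of these 3 lists were lower. In the Cy3 pair their medians were -1.62, -1.11 and -0.46. Atp5pb read 2.28 and -0.42 in D0 and -0.33 and -1.46 in D3-LIF, and Atp5b, a gene the study named, differed by -2.40 in the Cy3 pair and -0.72 in the Cy5 pair. Cox7c differed by -2.39, Cox7b by -1.38, Ndufs4 by -1.41 and Ndufv2 by -1.08, none past the threshold. With the D0 Cy3 array turned the 3 list medians were 0.04, 0.18 and 0.09.

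Among genes of redox balance and iron, Sod1, the cytosolic superoxide dismutase, had the smallest p after the called genes. It read 1.49 and -0.69 in D0 and -0.82 and -2.39 in D3-LIF, with differences of -2.31 in the Cy3 pair and -1.70 in the Cy5 pair (limma adjusted p = 0.076) and a mean difference of -0.51 with the D0 Cy3 array turned. Ftl1, the ferritin light chain and a gene the study named, read 3.54 and -0.84 in D0 and -1.45 and -3.37 in D3-LIF. Its Cy5 difference of -2.53 was among the largest of the named genes, and its 6 clones differed by -4.28 to -2.09. Over the list of 34 genes 20 were lower and 2 higher in both pairs. Of 11 hypoxia targets 6 were lower and 0 higher, led by the cytokine Mif at 3.97 and -0.17 in D0 and -0.96 and -2.48 in D3-LIF, and by Ero1a (difference -1.94). The redox and hypoxia list medians were 0.11 and 0.35 with the D0 Cy3 array turned.

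Fbxl5, the iron-sensing ubiquitin ligase subunit, read 3.08 and -0.03 in D0 and -0.38 and -1.90 in D3-LIF (limma adjusted p = 0.12), although its 2 clones differed by -4.24 and -1.09. The ubiquitin system as a list of 77 genes had a Cy5 median of -0.07, with 31 lower (40.3%, against 34.9% of all genes) and 13 higher in both pairs. Skp1 differed by -2.51 and Cul2 by -1.25. Of 36 proteasome genes 23 were lower and 3 higher, and Psmc3 and Psma6 differed by -2.18 and -2.59 with Cy5 differences of -1.11 and -1.40. The ubiquitin and proteasome list medians were 0.17 and 0.45 with the D0 Cy3 array turned, and Fbxl5 then differed by 0.42. The proteasome Cy5 median was -0.23, but 0.005 when the arrays were scaled to equal spread.

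The list of 78 chaperones, gathered by symbol, holds 1 gene that is none, the matrix proteoglycan Hspg2. Of the other 77 genes 50 were lower and 9 higher in both pairs, 11 of them lower by at least 2-fold, with no call by limma. Their Cy5 median was -0.32, but -0.03 when the arrays were scaled to equal spread. Cct8, a subunit of the cytosolic chaperonin, read 4.73 and 0.17 in D0 and -0.40 and -2.31 in D3-LIF. Its difference of -3.81 was larger than that of any called gene, but its limma adjusted p was 0.12. The difference of Cct8 became 0.92 with the D0 Cy3 array turned. Ppia, cyclophilin A, differed by -3.63. Hspa8 and Hsp90aa1, heat shock proteins named by the study, read 3.09 and -1.35 and 4.76 and -1.72 in D0, and -0.34 and -2.42 and -0.02 and -2.82 in D3-LIF. Both were lower within each dye, and both had a positive difference (0.84 and 1.82) with the D0 Cy3 array turned.

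Oct4, Nanog and Rex1 had lower values in D3-LIF than in D0 within each dye, and 16 of the 22 measured pluripotency genes did. Pou5f1, the transcription factor Oct4, read 3.85 and 0.08 in D0 and -0.40 and -1.88 in D3-LIF. Both D0 arrays lay above both D3-LIF arrays, and the difference was -3.10 (limma adjusted p = 0.20). It became 0.75 with the D0 Cy3 array turned. Nanog read 3.80 and -0.71, then 0.10 and -1.07, and Zfp42 read 3.89 and -1.23, then -0.61 and -1.66, so that their Cy5 differences of -0.37 and -0.43 were smaller than the -1.96 of Pou5f1. Tdgf1, the Nodal co-receptor Cripto, differed by -1.72 in the Cy5 pair and Gdf3, a TGF-beta family ligand, by -1.16. Sall4 was higher in both pairs and the other 5 genes differed in side between the pairs. The list medians were -1.66 and -0.37, and no call was made by limma. Trim28, a chromatin corepressor, read 2.07 and -0.30 in D0 and -0.50 and -1.45 in D3-LIF. Turning the D0 Cy3 array moved the list median from -0.97 to 0.20, and equal spread moved the Cy5 median to -0.09. An array ratio against a pool that itself holds EBs does not show whether a marker was present, only where it was higher.

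Dppa5a, a germline and ES cell gene with 1 clone, was lower under either sign of the D0 Cy3 array by at least 0.5, and Klf5 was the other pluripotency gene lower under either sign, by less. Dppa5a read 0.50 and -1.34 in D0 and -1.31 and -2.60 in D3-LIF. The difference was -1.53 (limma adjusted p = 0.23) and -1.03 with the D0 Cy3 array turned. Over the other 7 conditions it ranged from -1.22 to -0.10 in Cy3 and from -3.71 to -1.26 in Cy5.

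The LIF and STAT3 pathway held 12 measured genes, of which 7 were lower and 4 higher in both pairs. Socs3, the feedback inhibitor that STAT3 induces, read 2.57 and -0.27 in D0 and -0.49 and -1.93 in D3-LIF, and Grb2, an adaptor of the receptor, read 2.19 and -0.43, then -0.20 and -1.56. Klf4, a transcription factor that LIF maintains, had differences of -3.50 and -0.45, while Stat3 itself had 0.40 and 0.03 and Jak2 had 1.03 and 0.18. None passed the limma threshold, and Socs3 and Grb2 had positive differences, 0.21 and 0.43, with the D0 Cy3 array turned.

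The lists of the tissues that EBs form gave no call by limma. Dnmt3b, a de novo methyltransferase of the primitive ectoderm, read 4.04 and -1.15 in D0 and 0.35 and -0.39 in D3-LIF, so its Cy3 difference of -3.69 and its Cy5 difference of 0.76 opposed each other. The 6 primitive ectoderm genes had medians of -0.26 and 0.11, the 6 mesendoderm genes 0.33 and 0.07, with 4 higher and 1 lower in both pairs, and the 5 neurectoderm genes -1.26 and -0.39. Bmp4 differed by 0.44 and 0.20, Pdgfra by 3.46 and 0.06 and Eomes, a T-box factor of the mesendoderm, by 1.29 and 0.15. Tubb3, a neuronal tubulin, differed by -3.56 and -1.38, Stmn1 by -1.26 and -0.39 and Sall2 by 0.17 and 0.22. Apart from Tubb3 these Cy5 differences were under 1 on the log2 scale.

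Of 18 genes of the extraembryonic endoderm 9 were lower and 4 higher in both pairs, including Sparc, a secreted matrix protein, at 3.06 and -0.26 in D0 and -0.24 and -0.77 in D3-LIF, and Cd63 (difference -1.65). The 8 trophoblast genes held the opposite values of Cited2, a transcriptional coactivator, with 4.01 and 0.78, and Krt8, a keratin, with -2.36 and -0.30. Erythroid genes (5) had medians of 0.22 and 0.16, with Alas2 at 0.61 and 0.35 and Gata1 at 1.94 and 0.08. Fibroblast genes (11), a check for other cells, had 0.02 and 0.10, with Col1a1, a collagen chain, at 0.75 and 0.36 and Lgals1 at -3.49 and -0.72. Basement membrane and matrix genes (37) had 0.02 and 0.07, with 12 higher and 7 lower, and Nid1, the basement membrane linker nidogen, differed by -2.70 and -0.85. Over both pairs, medians of the primitive ectoderm, mesendoderm, trophoblast, erythroid, fibroblast and matrix lists changed sign under at least 1 other scaling or centring. Those of the neurectoderm and extraembryonic endoderm lists did so only with the values as deposited or a sign turned. In the Cy5 pair alone, however, the neurectoderm median became 0.15 at equal spread and 0.17 after quantile normalization.

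Dnmt1 was the called gene that was higher in D3-LIF. It read -1.15 and -1.31 on the D0 arrays and 0.04 and 0.15 on the D3-LIF arrays, so that the groups did not overlap and each group's arrays lay close together. The difference was 1.32 ± 0.17 (SE, limma adjusted p = 0.040). The other 7 conditions lay between -0.28 and 0.28 on both dyes, so D0 was the condition apart. A single clone stands for the gene, on slide 1, and its duplicate spots on the D0 Cy5 array differed by 2.81 on the log2 scale. With the D0 Cy3 array turned the difference was 0.18. Among the 61 chromatin genes 32 were lower and 7 higher in both pairs, with medians of -0.57 and -0.08.

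The next rising genes by p did not pass the threshold. Ankrd50 read -0.83 and -1.31 in D0 and -0.09 and 0.49 in D3-LIF, and its clone is spotted beside that of Mrps9, with duplicate spots 1.46 apart on the D0 Cy3 array. Idh2, the mitochondrial isocitrate dehydrogenase, read -0.89 and -0.69, then 0.05 and -0.09, with both D0 arrays below both D3-LIF arrays. Cfap161, Enkur and Ttll6, genes of cilia and flagella, differed by 0.57, 0.56 and 0.74, Dynlt3, a dynein light chain, by 0.61, Ap5s1 by 0.47 and Fthl17a by 1.44. The D0 value in Cy5 lay between -0.44 and 0.07 for these 6 genes, and at least 2-fold rises in both pairs were seen in only 2 genes in all (0.028%). All of the rising genes except Dnmt1, Mrps9 and Ankrd50 had a negative difference with the D0 Cy3 array turned.

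**Figure D4:**
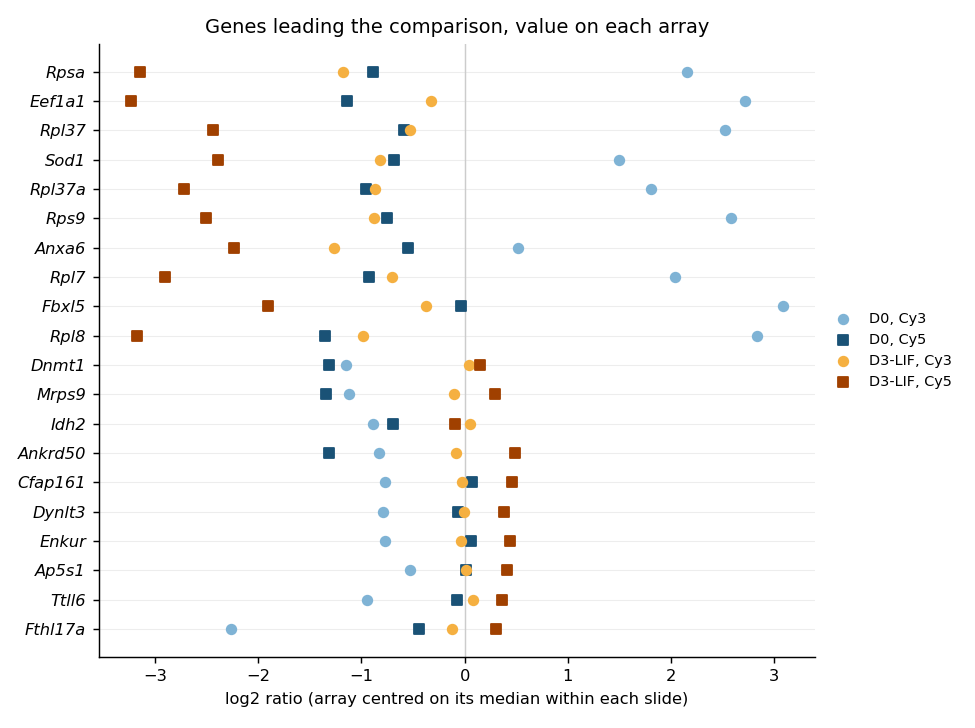
Log2 ratio (x axis) on each of the 4 arrays for the 10 lower and the 10 higher genes leading the comparison (y axis), with circles for Cy3 and squares for Cy5. For the lower genes the D0 Cy3 circle lies right of 0 and the D3-LIF Cy5 square lies furthest left. For Dnmt1 both D0 arrays lie near -1.2 and both D3-LIF arrays near 0.

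Genes were also sought that kept one side under either sign of the D0 Cy3 array, a criterion chosen after the values were seen and given with no test. Under it 167 genes were lower (2.34%) and 180 higher (2.52%) in both pairs. At a difference of at least 0.5 in each, 8 genes were lower (0.112%) and 1 was higher (0.014%). Such genes need a D3-LIF Cy3 value that lies further from 0 than the D0 Cy3 value by at least that step. The number with the D0 Cy3 array turned, without asking for both signs, was 1275 lower (17.9%) and 1562 higher (21.9%), a split opposite to that of the ratios as deposited.

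The 8 lower genes were Rplp1, Rps12, Rps21, Rps29, Dppa5a, Anxa6, Fkbp1a and Gm12617, 4 of them ribosomal proteins. Rplp1, a stalk protein of the large subunit named by the study, read 0.25 and -1.42 in D0 and -1.52 and -2.46 in D3-LIF, and its 3 clones, all on slide 2, differed by -1.73 to -0.79. Rps12 read 0.16 and -0.29, then -0.94 and -2.35. Rps29 read 0.03 and -0.98, then -0.92 and -2.10, and Rps21 read 0.35 and -0.74, then -0.98 and -1.93. Anxa6, a calcium-dependent membrane binding annexin, read 0.52 and -0.55, then -1.27 and -2.23, a difference of -1.74 ± 0.29 (SE, limma adjusted p = 0.12) that was -1.22 with the D0 Cy3 array turned. Fkbp1a, an immunophilin, and Gm12617, a predicted gene, had D0 values within 0.1 of 0 on both arrays and D3-LIF values of -0.66 and -1.66, and -0.72 and -1.96. Both D3-LIF arrays lay below both D0 arrays for Rplp1, Anxa6, Rps12, Rps21, Fkbp1a and Gm12617. Spryd7, the higher gene, read 1.67 and 0.04 in D0 and 2.55 and 1.47 in D3-LIF.

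**Figure D5:**
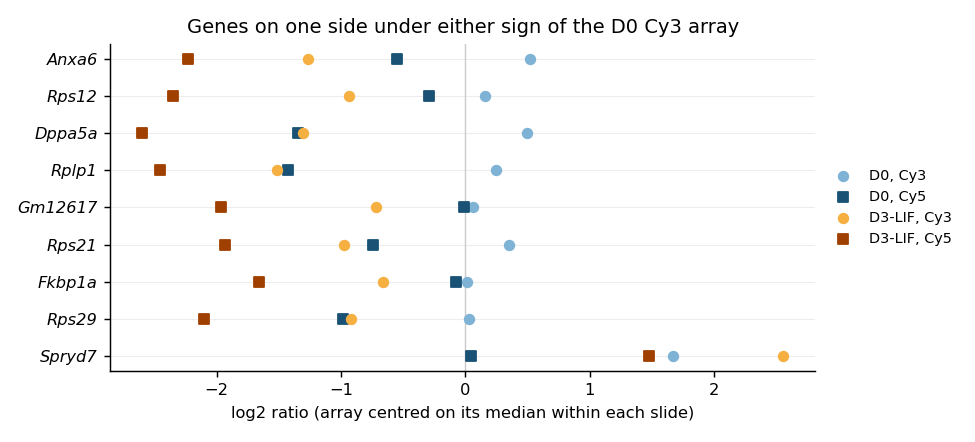
Log2 ratio (x axis) on each of the 4 arrays for the 9 genes (y axis) that differed by at least 0.5 to the same side in both pairs under either sign of the D0 Cy3 array. For the 8 lower genes the D0 Cy3 circle lies between 0 and 0.6, and for Spryd7 the D3-LIF circle lies furthest right.

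Lists of growth and cell structure had wider medians in the Cy3 pair than in the Cy5 pair, while single members were low in both. Of 65 genes of the cell cycle and replication 39 were lower and 8 higher in both pairs, with medians of -0.98 and -0.23, and Ccnd3 and Mcm3 differed by -1.15 and -1.33. Of 58 splicing and RNA binding genes 36 were lower and 3 higher, among them Hnrnpa1 (2.23 and -1.02, then -0.01 and -2.16) and Snrpe (1.34 and -0.54, then -0.52 and -1.45). Of 88 cytoskeletal genes 44 were lower and 14 higher, with Tmsb10, an actin-sequestering thymosin, at 4.36 and -0.99, then -0.89 and -2.81, and Cfl1, cofilin, at 2.79 and -1.44, then -0.80 and -2.62. Of 57 genes of ER translocation and secretion 33 were lower and 8 higher, led by Copb2 (Cy5 difference -1.89) and Tmed3 (-1.54). At least 2-fold lower in the Cy5 pair were 1, 4, 9 and 4 genes of these 4 lists (1.5%, 6.9%, 10.2% and 7.0%), against 3.5% of all genes. None of these passed the limma threshold, and all 4 list medians were above 0, from 0.25 to 0.52, with the D0 Cy3 array turned. When the arrays were scaled to equal spread, the 4 Cy5 medians were 0.01, 0.10, 0.05 and 0.003, none below 0.

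The remaining lists lay near the middle of the array in the Cy5 pair. Solute carriers (114 genes) had medians of -0.05 and -0.01, with 35 lower (30.7%, against 34.9% of all genes) and 29 higher. Slc14a1, a urea transporter, and Slc6a6, the taurine transporter, differed by -1.75 and -0.97. Cholesterol synthesis genes (9) had -0.64 and -0.16, with Fdft1, the squalene synthase, at -2.34 and Hmgcs1 at -1.25. The 6 p53 targets had -1.36 and 0.10, with Perp at -3.51 and -0.02 and Sesn1 at 0.40 and 0.21. The 17 imprinted genes had -0.25 and -0.03, with Igf2, a growth factor, at -0.87 and -0.41 and Sgce, a sarcoglycan named by the study, at 0.48 and -0.84 in D0 and -0.52 and -1.61 in D3-LIF.

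The genes the study singled out were chosen there on these arrays, so their values here are no independent evidence of direction. The paper then followed its array genes by RT-PCR on other EB samples, where most showed no pattern that held across repeats. Rpl37, called lower here, is on its list of genes that RT-PCR did not bear out. Rps21, Anxa6, Trim28 and Ppia are on that list too. By quantitative PCR it also reported a decline of Hspa8 from the undifferentiated cells. The other gene it measured that way, an uncharacterised one, dipped at Day 1 and peaked at Day 3 without LIF. Those PCR results were not used here. Of the 16 singled-out genes measured here, 14 were lower and 1, the mitotic kinase Aurkb (0.80 and 0.26), was higher in both pairs. Hnrnpk, an RNA binding protein, was lower in the Cy3 pair and higher in the Cy5 pair (-0.73 and 0.72), with a difference near 0 (limma adjusted p = 1.00). Tkt, the transketolase, had the smallest range, at 0.27 and -0.25 in D0 and 0.01 and -0.44 in D3-LIF, with its 6 clones from -1.11 to 0.60. Rps2 differed by -2.48, Tubb5 by -2.33, Ssr2 by -2.12 and Cox4i1 by -1.49. The 3 genes listed as controls, which are common housekeeping genes, were no flatter than these. The paper itself found all 3 to vary during differentiation and used a ribosomal RNA as its housekeeping gene instead. Actb, the cytoplasmic actin, read 3.66 and -0.84 in D0 and -0.04 and -2.26 in D3-LIF, Gapdh read 3.91 and -0.63, then -0.60 and -2.16, and Hprt read 2.89 and -1.28, then -0.21 and -1.52. Their differences were -2.56, -3.02 and -1.67 relative to the middle of each array, and 1.10, 0.89 and 1.22 with the D0 Cy3 array turned. The 10 clones of Actb ranged from -4.31 to 1.75.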

How the data were processed

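RNA of the 9 conditions was labelled and hybridised against a pooled control on 18 arrays, each a pair of slides holding the NIA 15K mouse cDNA clones. Per the labels and the paper, the authors scanned the slides, quantified spots in ImaGene and scaled either channel to its average intensity. The deposited values are ratios of one channel to the other, spot by spot and linear. Spot intensities were not used here, so signal over background is unknown, and the number of arrays limits the precision. Ratios were taken to log2, copies lying 160 spots apart were averaged (1 spot at 0 and 3840 spots without a copy were left out), and the median of each slide was subtracted array by array. Symbols came from the platform annotation, in which 9866 clones had 1 symbol, 274 several and 5220 none (9760 matched RefSeq by Entrez ID). Limma 3.58.1 (R 4.3.3) was fitted to 9 condition means and a dye term over 18 arrays, with Benjamini-Hochberg adjustment over all 15360 clones or 7142 genes. Replicates share only the dye, which served as the block. SAM was written for this work, with a delta of 0.5. The scripts were tested on simulated data. Named genes were the 10 rising and 10 falling genes past the threshold on the same side in both pairs, filled up by smallest p, up to 4 called genes (or the 2 of smallest p) from each of 36 lists, and the genes the study named. Lists were filled in part by symbol patterns and can hold other genes. The members and lists were chosen with earlier results of these data known. Alternatives covered centring, scaling, weights, the dye term, slides, signs, filters and leaving out each array. No set test was run.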

Additional observations from a re-analysis of the deposited data

How the results depend on the processing

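The 3 lower and 1 higher genes called by limma became 0 and 0 as deposited (no centring), with equal spread, after quantile normalization, with only the 4 arrays compared, on slide 1 or slide 2 alone, and with the sign of all Cy3 arrays or of the D0 Cy3 array turned. They became 20 and 2 when arrays were centred over both slides together, 1 and 0 with array quality weights, 5 and 0 with only clones measured on all 18 arrays, and 2 and 0 with duplicate spots within 1. Of the 4 main calls these settings kept 2, 1, 3 and 2, in that order. Without the replicate block, that is with no dye term, 0 and 0 genes were called and 196 had an unadjusted p under 0.05. Leaving out 1 array gave 0 to 1483 lower and 0 to 742 higher genes, and 0 to 2487 lower and 0 to 2269 higher clones: each maximum came without the D0 Cy5 array, when the wide D0 Cy3 array stood alone and was assumed to vary like the other groups, and without any of the other 3 arrays 0 genes were called. Clone counts (0 and 0) became 94 and 2 when centred over both slides, 0 and 1 after quantile normalization, 8 and 0 on slide 2, and 2306 and 1297 by SAM. Clones at least 2-fold lower and higher in both pairs numbered 690 and 10. They became 379 and 89 as deposited, 630 and 24 centred over both slides, 281 and 13 with equal spread, 101 and 222 after quantile normalization, 211 and 0 on slide 2, 9 and 10 with the Cy3 arrays turned, and 11 and 15 with the D0 Cy3 array turned.

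Of 36 list medians 31 lay below that of all genes, against 5 with the Cy3 arrays turned and 7 with the D0 Cy3 array turned. The median of all genes was -0.07, 0.42 as deposited and -0.38 on slide 1. Called genes changed side with the Cy3 arrays turned (Rpsa 0.54, Eef1a1 0.48 and Rpl37 0.60) and with the D0 Cy3 array turned (Eef1a1 0.15 and Rpl37 0.070). Of 98 named genes 89 and 73 changed sign under these, and 0 to 11 under any other alternative. The 8 genes lower under either sign of the D0 Cy3 array became 5 centred over both slides, 132 with equal spread, 102 after quantile normalization, 0 on slide 1 and 13 on slide 2. Turning the D0 Cy3 array alone was chosen after seeing the data. The cause of these changes was not tested.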
